A study of Homo sapiens with 6 samples.

Results

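The proteasome genes on these arrays are the genes for the subunits, activators and assembly factors of the proteasome. Genes were chosen by symbol, namely those that begin with PSMA, PSMB, PSMC, PSMD, PSME, PSMF or PSMG and a digit, together with POMP, ADRM1, SEM1 and ECPAS. The family itself was picked from earlier results of these arrays, so that its log2 differences between the groups were known beforehand. Counts over the family are therefore given as descriptions. The rule found 49 of 18132 measured genes, with 120 probe sets. Of these, 47 belong to the proteasome or its assembly, while PSMC3IP and PSME3IP1 share only the start of the symbol and encode proteins that bind a subunit or an activator. PSMA6, PSMC5, PSMD7, PSMD13 and SEM1 were not analysed here.

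Total RNA of 6 samples was measured on Affymetrix expression arrays, with 1 array for each. All samples are labelled TPC-1, an established human line from papillary thyroid carcinoma, grown in RPMI1640 with fetal bovine serum. One group of 3 received a lentivirus with a control shRNA (shControl) and the other group of 3 a lentivirus with an shRNA against FAM60A (shFAM60A), an older symbol of SINHCAF, which encodes a subunit of the SIN3-HDAC co-repressor. The labels name no shRNA sequence, no time after infection and no separate cultures, so a p-value here is set by how far these samples differ, which may be technical variation alone. In bulk RNA, fewer cells of a type and less RNA per cell cannot be told apart. The deposited values were log2 values relative to each probe set's median over the 6 arrays, so a value tells how far an array lies from the others and not how abundant a transcript is.

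A few facts of the whole series bear on every result below. SINHCAF was 2.36-fold higher in the shFAM60A arrays (log2 difference 1.24, SE 0.038; limma, adjusted p = 1.08e-06), against its label, and the values of the groups did not overlap (two-sided exact permutation test, p = 0.1, the smallest this design can give). Groups are therefore named by their labels, and each rise or fall below is one in the arrays labelled shFAM60A relative to those labelled shControl. DLD1, a colorectal line, is the line named where the extraction of RNA is described. Of 9 thyroid markers, 0 rose and 1 fell, and of 10 colorectal markers 6 rose and 0 fell. Over all genes, 19.8% rose and 25.0% fell. A probe set of the highest level class was held by 1 of the thyroid, 3 of the colorectal and 1 of the 9 leukocyte markers. The thyroid one was DIO1, whose other 6 probe sets lay in the lowest class. Summed log2 values of the thyroid list ran from -0.88 to -0.45 in the shFAM60A arrays and from 0.44 to 0.54 in the shControl arrays. Those of the colorectal list ran from 2.74 to 2.88 against -3.01 to -2.65. The largest log2 differences of the colorectal list were those of LGR5 (1.995), KRT20 (1.202), CDX2 (0.999) and CDH17 (0.823). All other genes of that list lay between 0.03 and 0.18. Among these, MUC2 and LGALS4, both counted as higher, had their only probe set in the lowest level class. The gene that fell in the thyroid list was HHEX, at -0.97, and the other 8 lay between -0.13 and 0.03. Of 9 leukocyte markers 2 rose and 0 fell, and the summed values of the list ran from 0.19 to 0.71 against -0.62 to 0.10. The 2 were CD68, with 1 of 2 probe sets called, and CD79A, with 0 of 3 called and 2 in the lowest level class. The difference between the 3' and 5' control probe sets of GAPDH and ACTB, a sign of RNA quality, moved by -0.012 and -0.029 between the groups. The part of these marker shifts in the results was not tested.

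The proteasome is the protease that degrades proteins tagged with ubiquitin. Its core particle stacks rings of alpha subunits, which gate the entrance, around rings of beta subunits, of which PSMB5, PSMB6 and PSMB7 carry the catalytic sites. A regulatory particle caps the core. Its base holds a ring of ATPases that unfold substrates and its lid removes ubiquitin. Interferon induces the alternative catalytic subunits PSMB8, PSMB9 and PSMB10, which replace PSMB5, PSMB6 and PSMB7 in the immunoproteasome, and the activator subunits PSME1 and PSME2. The products of the immunoproteasome feed antigen presentation by MHC class I. When proteasome activity falls, the transcription factor NFE2L1 raises the genes of the constitutive subunits together through antioxidant response elements.

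Promoters are shown for PSMB9, PSMB10, PSME1 and PSME2, the interferon-inducible genes among the 8 of the family that rose. RefSeq windows, from 250 before to 50 after the gene's start (build GRCh38.p14), were found for 43 of the 49 genes. They were searched on both strands for the core of the antioxidant response element (TGACNNNGC), for the interferon-stimulated response element (TTTC, any 2 bases, TTTC) and for the gamma-activated site (TTCNNNGAA). Matches of different motifs did not overlap. Capitals mark the matches, and each sequence runs 5′ to 3′ on the strand of its gene.
PSMB10, chr16:67936801-67937100, minus strand: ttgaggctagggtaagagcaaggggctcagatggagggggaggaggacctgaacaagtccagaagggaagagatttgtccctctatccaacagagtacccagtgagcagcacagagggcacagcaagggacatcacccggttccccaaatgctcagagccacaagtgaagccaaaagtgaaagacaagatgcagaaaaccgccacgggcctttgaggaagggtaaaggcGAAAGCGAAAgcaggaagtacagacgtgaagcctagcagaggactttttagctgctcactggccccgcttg
PSME2, chr14:24146561-24146860, minus strand: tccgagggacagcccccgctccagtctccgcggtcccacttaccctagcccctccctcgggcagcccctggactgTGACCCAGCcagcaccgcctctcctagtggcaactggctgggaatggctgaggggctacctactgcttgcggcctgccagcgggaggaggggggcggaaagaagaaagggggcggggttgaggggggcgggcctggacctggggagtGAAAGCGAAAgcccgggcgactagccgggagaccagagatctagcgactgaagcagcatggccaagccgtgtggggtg
PSME1, chr14:24135944-24136243, plus strand: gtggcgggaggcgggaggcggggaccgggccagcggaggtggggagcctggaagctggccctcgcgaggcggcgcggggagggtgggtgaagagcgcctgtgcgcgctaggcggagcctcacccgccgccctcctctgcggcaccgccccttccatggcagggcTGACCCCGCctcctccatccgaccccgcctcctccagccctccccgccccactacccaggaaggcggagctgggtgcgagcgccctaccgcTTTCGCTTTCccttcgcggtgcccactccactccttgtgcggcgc
PSMB9, chr6:32853942-32854241, plus strand: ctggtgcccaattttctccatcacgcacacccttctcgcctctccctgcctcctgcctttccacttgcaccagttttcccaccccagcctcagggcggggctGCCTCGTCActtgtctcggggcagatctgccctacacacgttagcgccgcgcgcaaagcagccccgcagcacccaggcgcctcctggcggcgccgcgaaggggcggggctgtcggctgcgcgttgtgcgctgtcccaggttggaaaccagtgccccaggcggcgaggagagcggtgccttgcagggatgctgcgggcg

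PSMB10 and PSME2 hold the interferon-stimulated response element in the same letters, GAAAGCGAAA on the gene's strand, 21 and 28 bases before the start. In PSME1 the match, TTTCGCTTTC, begins 5 bases after the start. PSMB9 has only an antioxidant element core, 148 bases before the start, and PSMB8 has no match to any of the 3 motifs in its window. The interferon-stimulated element was matched in 3 of the 8 windows of genes that rose, in 3 of 25 of genes that fell and in 0 of 10 of genes that did not pass, against 3.65% of 27305 promoters in the table. The 3 that fell were PSMG4, with the same letters as PSMB10, PSMB4 and PSMA4. The antioxidant element core was matched in 5 of 8, 9 of 25 and 0 of 10 windows, against 13.6% of all promoters, and the gamma-activated site in 1, 3 and 1, against 7.88%. A match is a run of letters and not a bound site.

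Most proteasome genes were lower in the shFAM60A arrays. The 8 that were higher were PSMA5, PSMB9, PSMB10, PSME1, PSME2, PSME3, PSMG1 and PSMG2, and of the inducible subunits PSMB8 did not pass. Of the 49 genes, 30 fell, 8 rose and 11 did not pass the test (limma, adjusted p under 0.05 over all genes), so that 77.6% were called, where 44.9% of all 18132 genes were. The falls made up 61.2% of the family against 25.0% of all genes, and the rises 16.3% against 19.8%. The median log2 difference was -0.27 over the family and -0.012 over all genes. The changes were modest, from -0.59 for PSMC3 to 0.50 for PSMB10, that is 1.51-fold lower to 1.42-fold higher. The values of the groups did not overlap for 47 of the 49 genes, against 53.2% of all genes. The exceptions were PSMA8 and PSMB11. Since the family was picked with this contrast known, none of these shares is evidence about it.

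**Figure D1:**
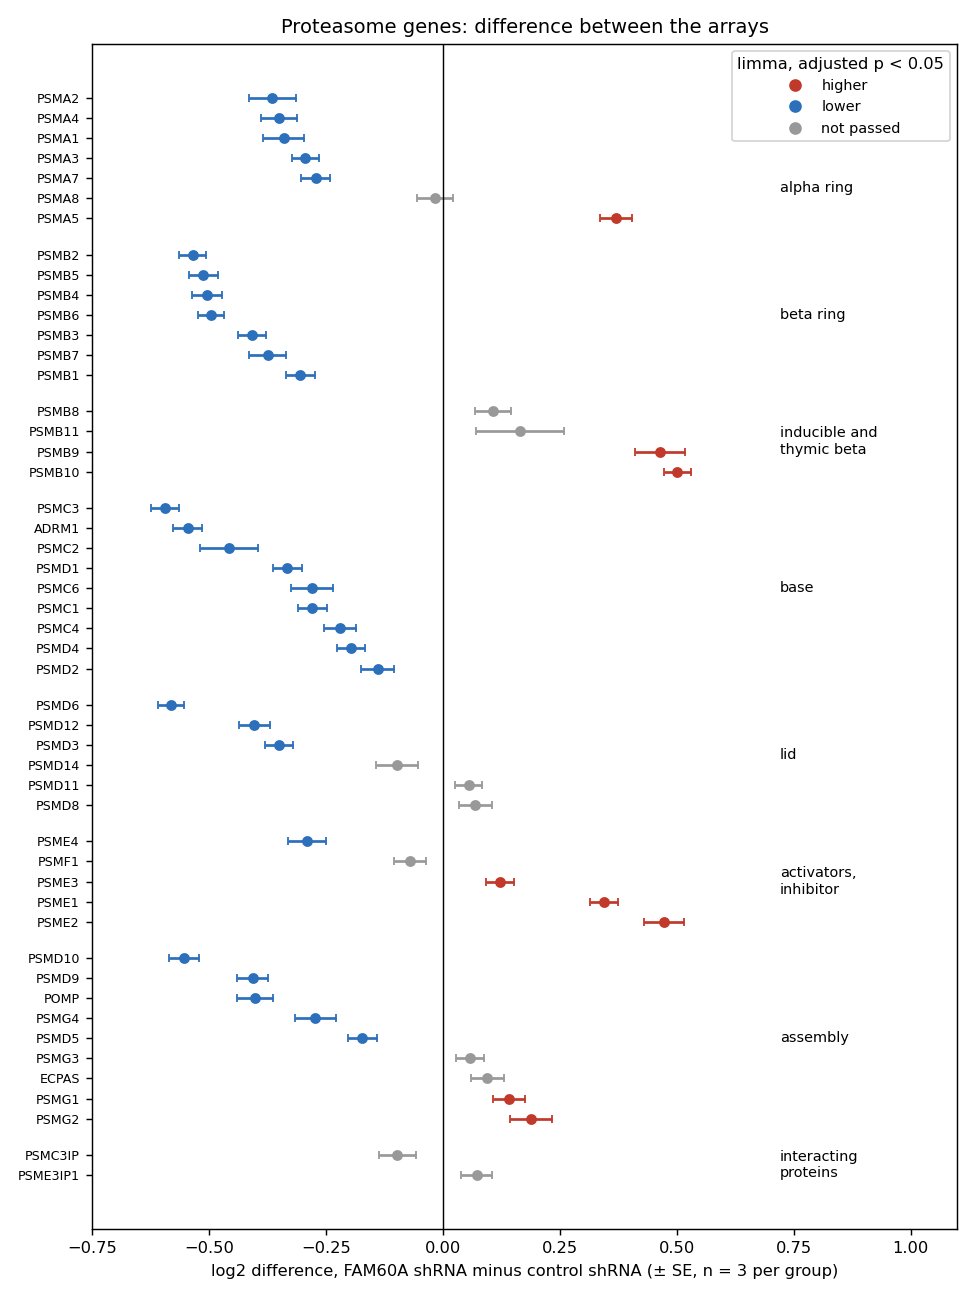
Log2 difference of each of the 49 genes between the shFAM60A and shControl arrays (x axis, with SE, n = 3 per group), ordered within structural groups; red and blue mark genes that rose or fell (limma, adjusted p under 0.05). All 7 beta ring and all 9 base genes lie left of 0, and PSMA5, PSMB9, PSMB10, PSME1 and PSME2 lie furthest right.

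The alpha ring fell except for PSMA5. Of 7 alpha genes measured, 5 fell, PSMA5 rose and PSMA8 did not pass, with a median log2 difference of -0.29. Over all genes, 25.0% fell and 19.8% rose. PSMA5, which encodes the alpha-5 subunit of the ring, had log2 values of -0.20, -0.15 and -0.17 in the shControl arrays and 0.21, 0.22 and 0.15 in the shFAM60A arrays. Every shFAM60A array thus lay above every shControl array, and the difference was 0.37 ± 0.034 (SE, n = 3 per group; limma, adjusted p = 9.42e-05), 1.29-fold higher. PSMA5 is measured by 1 probe set, so no second probe set bears on its direction.

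PSMA2, which encodes another subunit of the ring, moved as far the other way. Its values were 0.25, 0.19 and 0.12 in the shControl arrays and -0.14, -0.13 and -0.26 in the shFAM60A arrays, a difference of -0.37 ± 0.051 (SE, n = 3 per group; adjusted p = 7.74e-04), and both of its probe sets fell. No value of one group reached the other, and the third shFAM60A array was the lowest. PSMA4 (-0.35), PSMA1 (-0.34), PSMA3 (-0.29) and PSMA7 (-0.27) were close to it. PSMA8, a testis-specific alpha subunit, had -0.02 (adjusted p = 0.76), and its only probe set lay in the lowest level class. Level classes, inferred from the rounding of the deposited numbers, are log2 levels of 2 to 4, 4 to 8, or 8 and more. The lowest holds 16 of the 17 control tags that match no transcript. A class can be too high, because the 6 values of a probe set can fit a coarser rounding step by accident. Classed at 16 or more were 775 probe sets, counted here with 8 and more.

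The beta ring fell as a whole. All 7 constitutive beta genes measured were lower and passed the test, beside 25.0% of all genes. They ran from -0.54 for PSMB2 to -0.31 for PSMB1, with a median of -0.50. In none did the groups overlap, as in 53.2% of all genes. PSMB2, a structural beta subunit, had log2 values of 0.26, 0.25 and 0.29 in the shControl arrays and -0.27, -0.27 and -0.27 in the shFAM60A arrays. The difference of -0.54 ± 0.029 (SE, n = 3 per group; limma, adjusted p = 8.78e-06) is 1.45-fold lower, and all 3 of its probe sets fell. PSMB4 (-0.50) and PSMB3 (-0.41), further subunits without a catalytic site, fell as well.

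The catalytic subunits of the core and their inducible counterparts moved apart. PSMB5, the chymotrypsin-like subunit, had log2 values of 0.25, 0.26 and 0.26 in the shControl arrays and -0.25, -0.23 and -0.29 in the shFAM60A arrays. Its difference of -0.51 ± 0.031 (SE, n = 3 per group; adjusted p = 1.32e-05) was seen in all 5 of its probe sets, from -0.58 to -0.45. Its counterpart PSMB8 had 0.02, -0.08 and -0.09 against 0.07, 0.06 and 0.04, a difference of 0.11 that did not pass (adjusted p = 0.062). The first shControl array was the highest of its group, yet the groups did not overlap.

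PSMB6, the caspase-like subunit, had 0.25, 0.24 and 0.26 in the shControl arrays and -0.25, -0.24 and -0.24 in the shFAM60A arrays, a difference of -0.50 ± 0.028 (SE, n = 3 per group; adjusted p = 1.03e-05). Its inducible counterpart PSMB9 went the other way, with -0.35, -0.15 and -0.24 against 0.18, 0.24 and 0.22. PSMB9 rose by 0.46 ± 0.053 (SE, n = 3 per group; adjusted p = 2.94e-04), 1.38-fold. The shControl arrays were spread more widely (SD 0.099) than the shFAM60A arrays (SD 0.031), and no value of one group reached the other. Of the 3 probe sets of PSMB9, 2 rose, by 0.64 and 0.62. The third had 0.13, with overlapping groups, and did not pass (limma, adjusted p = 0.36).

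PSMB7, the trypsin-like subunit, had 0.25, 0.14 and 0.16 in the shControl arrays and -0.20, -0.22 and -0.15 in the shFAM60A arrays, a difference of -0.38 ± 0.040 (SE, n = 3 per group; adjusted p = 2.07e-04). PSMB10, which replaces it, had -0.24, -0.26 and -0.25 against 0.26, 0.24 and 0.24. It rose by 0.50 ± 0.028 (SE, n = 3 per group; adjusted p = 1.06e-05), 1.42-fold, in all 3 of its probe sets. This was the largest rise of the family by the mean of probe sets, while PSMB9 lay above it with the median (0.57 against 0.51) and with the probe set of largest variance (0.64 against 0.55). Thus the replacing subunit lay higher and the replaced one lower on each shFAM60A array.

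Set against its partner on the same array, each inducible subunit gained. PSMB8 minus PSMB5 went from -0.30 ± 0.070 (SD, n = 3) in the shControl arrays to 0.32 ± 0.018 (SD, n = 3) in the shFAM60A arrays, a shift of 0.62. PSMB9 minus PSMB6 shifted by 0.96, from -0.50 ± 0.10 to 0.46 ± 0.030, and PSMB10 minus PSMB7 by 0.88, from -0.43 ± 0.048 to 0.44 ± 0.040. These are shifts of a log2 ratio between arrays, and they do not give the ratio of the transcripts within a cell. PSMB11, the thymus-specific beta subunit, had 0.16 and did not pass (adjusted p = 0.21), with overlapping groups and its 1 probe set in the lowest level class.

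**Figure D2:**
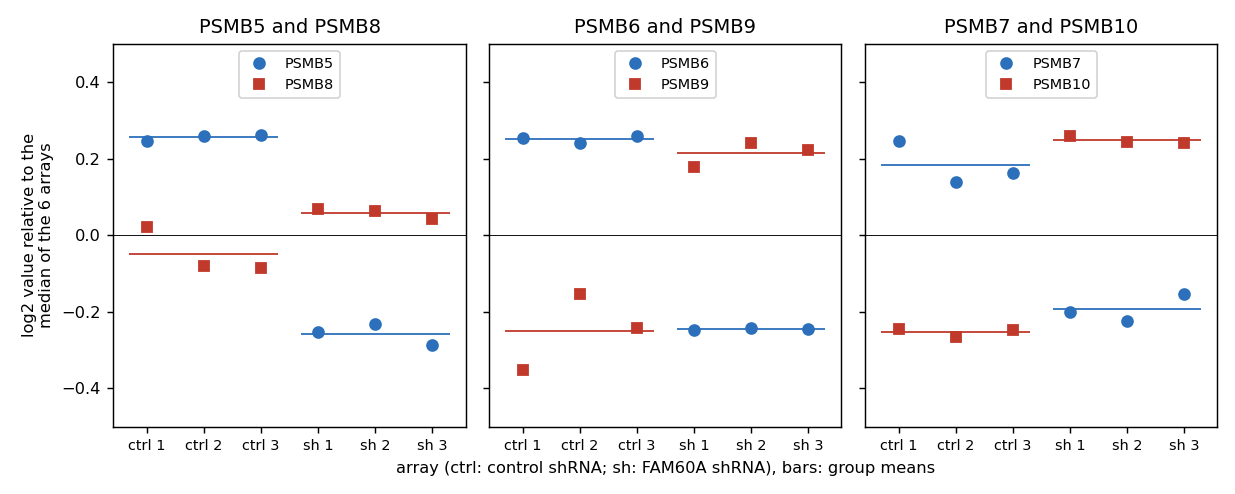
Log2 value of each catalytic subunit on each of the 6 arrays, relative to the median of the 6 (y axis), with the constitutive subunit in blue, the inducible one in red and group means as lines. The blue points drop from about 0.25 to about -0.25 in the first and middle panels, while PSMB9 and PSMB10 cross them upwards and PSMB8 moves by 0.11.

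The base of the regulatory particle fell throughout. All 9 base genes measured were lower and passed the test, beside 25.0% of all genes. Their median log2 difference was -0.28. PSMC3, an ATPase of the ring, had log2 values of 0.29, 0.28 and 0.30 in the shControl arrays and -0.33, -0.28 and -0.30 in the shFAM60A arrays. This difference of -0.59 ± 0.030 (SE, n = 3 per group; limma, adjusted p = 6.68e-06) was the largest of the family by the mean of probe sets. PSMC3 is measured by 1 probe set, so no second one bears on its rank. With the probe set of largest variance, PSMC2 (-0.79), PSMD12 (-0.71), PSMB2 (-0.65) and POMP (-0.61) lay beyond it, and PSMD12 also did so with the median of probe sets (-0.62) and without x_at and s_at probe sets (-0.69). ADRM1, the ubiquitin receptor that anchors the deubiquitinase UCHL5, had 0.30, 0.26 and 0.25 against -0.25, -0.28 and -0.30, a difference of -0.55 ± 0.032 (SE, n = 3 per group; adjusted p = 1.12e-05). In both genes the groups were far apart relative to their spread.

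PSMC2, another ATPase, had -0.46 as the mean of its 3 probe sets, and its first shControl array stood at 0.37 against 0.15 and 0.17 in the others. Those probe sets had -0.79, -0.43 and -0.16, so that the one of largest variance lay beyond PSMC3 and the one at -0.16 did not pass. Of the remaining ATPases, PSMC6 and PSMC1 both had -0.28 and PSMC4 had -0.22, and PSMC6 had -0.44 without its probe set of the lowest level class. Among the non-ATPase subunits, the scaffolds PSMD1 (-0.33) and PSMD2 (-0.14) and the ubiquitin receptor PSMD4 (-0.20) fell, PSMD2 by the least of the base (adjusted p = 0.014).

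The lid went 2 ways, with 3 genes lower and 3 that did not pass, where 25.0% of all genes were lower. PSMD6 had log2 values of 0.28, 0.29 and 0.29 in the shControl arrays and -0.30, -0.28 and -0.30 in the shFAM60A arrays, a difference of -0.58 ± 0.028 (SE, n = 3 per group; limma, adjusted p = 5.74e-06). PSMD12 had 0.24, 0.18 and 0.19 against -0.18, -0.19 and -0.23, a mean of probe sets of -0.40 ± 0.033 (SE, n = 3 per group; adjusted p = 5.93e-05). PSMD3 fell by 0.35. By contrast PSMD14, the deubiquitinase that releases ubiquitin chains, had -0.10 (adjusted p = 0.13), PSMD11 had 0.05 (adjusted p = 0.18) and PSMD8 had 0.07 (adjusted p = 0.16). The 95% confidence intervals of these 3 differences ran from -0.20 to 0.01, from -0.01 to 0.12 and from -0.01 to 0.15, so falls as large as that of PSMD3 lie outside them.

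**Figure D3:**
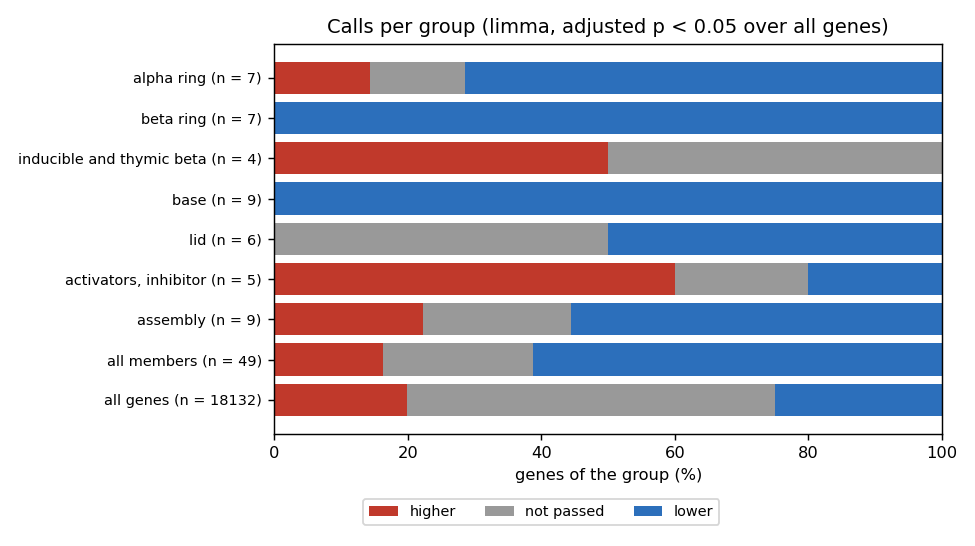
Percent of the genes of each structural group that rose (red), did not pass (grey) or fell (blue) in the shFAM60A arrays, with the number of genes measured, above the same for all members and all genes. The beta ring and base bars are blue throughout, those of the lid and the inducible subunits are part grey, and that of all genes shows 25.0% lower and 19.8% higher.

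The activators that interferon induces rose, and the others differed. PSME2, the beta subunit of that activator, had log2 values of -0.27, -0.31 and -0.19 in the shControl arrays and 0.20, 0.26 and 0.19 in the shFAM60A arrays, a rise of 0.47 ± 0.042 (SE, n = 3 per group; limma, adjusted p = 8.23e-05). PSME1, its alpha subunit, had -0.15, -0.18 and -0.18 against 0.18, 0.16 and 0.19 and rose by 0.34 ± 0.029 (SE, n = 3 per group; adjusted p = 6.86e-05). Both genes separated the groups fully, with all 3 probe sets of PSME1 higher. PSME3, a nuclear activator that interferon does not induce, had -0.04, -0.05 and -0.09 against 0.07, 0.06 and 0.05, a rise of 0.12 (adjusted p = 0.013) that did not pass without the third shControl array (0.11, adjusted p = 0.051). PSME4, a large nuclear activator, fell by 0.29 (adjusted p = 7.87e-04). PSMF1, an inhibitor of the core in vitro, had -0.07 and did not pass (adjusted p = 0.13).

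Assembly factors changed in both directions, 5 lower and 2 higher of 9, where 25.0% of all genes fell and 19.8% rose. PSMD10, a chaperone of the base also called gankyrin, had log2 values of 0.26, 0.28 and 0.27 in the shControl arrays and -0.29, -0.32 and -0.25 in the shFAM60A arrays, a difference of -0.55 ± 0.032 (SE, n = 3 per group; limma, adjusted p = 1.11e-05). PSMD9, another base chaperone, had 0.26, 0.25 and 0.18 against -0.18, -0.18 and -0.17, a difference of -0.41 ± 0.033 (SE, n = 3 per group; adjusted p = 5.70e-05). The groups lay apart in both. PSMD5, the remaining base chaperone here, fell by 0.17, and POMP, which matures the core, fell by 0.40.

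The chaperones of the alpha ring work in pairs, PSMG1 with PSMG2 and PSMG3 with PSMG4. PSMG1 had log2 values of -0.04, -0.09 and -0.10 in the shControl arrays and 0.05, 0.09 and 0.04 in the shFAM60A arrays and rose by 0.14 (adjusted p = 0.011). PSMG2 had -0.04, -0.11 and -0.14 against 0.09, 0.16 and 0.04 and rose by 0.19 (adjusted p = 0.011). Both partners of this pair thus rose, by amounts below most falls of the family. In the other pair PSMG4 fell by 0.27, while PSMG3 had 0.06 and did not pass (adjusted p = 0.16). ECPAS, a scaffold that binds the proteasome, had 0.09 (adjusted p = 0.065). The interacting proteins PSMC3IP, a factor of meiotic recombination (-0.10, adjusted p = 0.088), and PSME3IP1 (0.07, adjusted p = 0.12) did not pass either.

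Most single probe sets of the family fell as well. Of the 120 probe sets, 77 fell, 19 rose and 24 did not pass (limma over 44988 probe sets with 1 symbol), so that 80.0% were called, where 41.4% of all were. Of the 36 genes with several probe sets, 19 had all of them called in 1 direction and 3 had probe sets called in both, PSMB8, PSMD12 and PSMF1. In PSMB8, both probe sets in the class of 8 or more rose, by 0.22 and 0.31. The third, in the lowest class, fell by 0.21. Without the lowest class the gene rose by 0.27 (adjusted p = 5.31e-04). In PSMD12, 3 probe sets fell, with differences of -0.71 to -0.60, and 1 rose by 0.36, all of them above the lowest class, so that its mean of -0.40 describes neither. In PSMF1, 5 fell, with differences of -0.19 to -0.12, and 1 rose by 0.31. PSME4 also ran from -0.57 to 0.13, and PSMC2 from -0.79 to -0.16, with 1 probe set each that did not pass. With the probe set of largest variance, PSME4 had -0.57 and PSME3 had 0.20. Which transcripts these probe sets match was not analysed here.

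**Figure D4:**
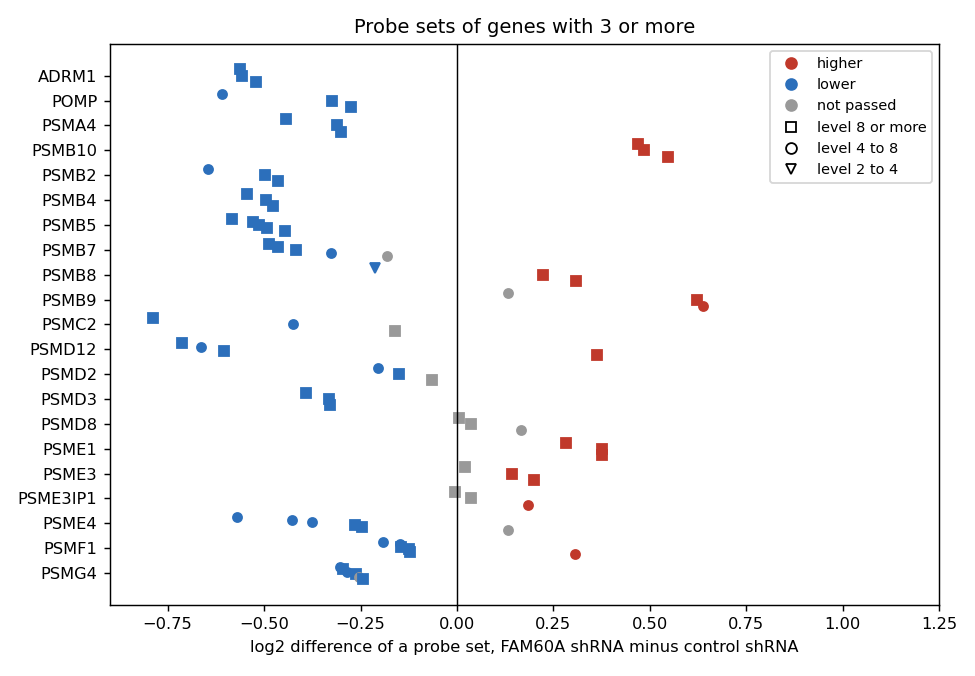
Log2 difference of each probe set (x axis) for genes with 3 or more, coloured by call (limma, adjusted p under 0.05) and shaped by level class. Those of ADRM1, PSMB5 and PSMB10 lie close together, while PSMB8, PSMD12 and PSMF1 have coloured points on both sides of 0.

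Genes that act with the proteasome were mixed. Of 14 partners measured, 5 rose, 6 fell and 3 did not pass (median log2 difference -0.04), where 19.8% of all genes rose and 25.0% fell. UBQLN4, a shuttle that brings ubiquitin-tagged proteins to the proteasome, was 2.64-fold higher (1.40 ± 0.038, SE, n = 3 per group; limma, adjusted p = 7.32e-07), and its relative UBQLN2 rose by 0.40. USP14, a deubiquitinase of the base, fell by 0.40 and ZFAND5, a ubiquitin-binding activator, rose by 0.41. UCHL5, which ADRM1 anchors, fell by 0.23. For ubiquitin and its activating enzymes 6 genes were listed and 3 were analysed. Of these 3, 2 fell, beside 25.0% of all genes, namely the polyubiquitin gene UBB (-0.15) and the activating enzyme UBA6 (-0.22). For UBA6, 2 of 4 probe sets passed.

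NFE2L1, the transcription factor of the proteasome genes, rose by 0.18 (adjusted p = 0.0016), opposite in sign to most of the subunit genes. Of the 12 measured genes of the list around it, 4 rose, 2 fell and 6 did not pass (median log2 difference 0.05), a share near the 44.9% called among all genes. That list also holds NRF1, nuclear respiratory factor 1, a different gene that shares a former name with NFE2L1 and rose by 0.12 (adjusted p = 0.041). The protease DDI2 (-0.05) and the deglycosylase NGLY1 (0.07), which release NFE2L1 from the endoplasmic reticulum as an active factor, did not pass. Probe sets of DDI2 ran from -0.44 to 0.14, with 1 of 4 called lower. Those of NGLY1 ran from -0.15 to 0.25, with 2 of 5 called higher. NFE2L2, a relative of NFE2L1 in the antioxidant response, rose by 0.24, and MAFG, a partner of both, fell by 0.25. SEL1L, of the machinery that extracts NFE2L1 from the membrane, fell by 0.16. The array gives transcript levels only, so the processing of NFE2L1 protein was not measured.

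Genes of MHC class I presentation and its interferon control moved in both directions. Of the 22 such genes on the arrays, 11 rose, 5 fell and 6 did not pass (median log2 difference 0.11), beside 19.8% higher and 25.0% lower over all genes. ERAP2, a peptidase that trims peptides in the endoplasmic reticulum, rose by 0.53, HLA-E, a class I heavy chain, by 0.41 and the chaperone PDIA3 by 0.30. Among further heavy chains, HLA-C rose by 0.13, and HLA-B (0.04) and HLA-F (-0.01) did not pass. IRF1, a transcription factor that drives the immunoproteasome genes, rose by 0.25 and the class I transactivator NLRC5 by 0.30. For PDIA3 and NLRC5, 1 of 2 probe sets passed, at 0.50 and 0.57, and the other had 0.09 and 0.02. For ERAP2, 2 of 3 passed, with differences of 0.10 to 0.76 over the 3, and 1 lay in the lowest level class. IRF1 had 3 of 4 probe sets called higher, with differences of -0.17 to 0.53. HLA-C had 1 of 3 called higher, with differences of 0.007 to 0.27. The receptor subunits of interferon gamma parted, with IFNGR1 at 0.24 and IFNGR2 at -0.25, and the kinase JAK2 (-0.25) and IRF9 (-0.29) fell. Of 8 cytosolic peptidases that cut the products of the proteasome further, 3 rose and 4 fell (19.8% and 25.0% of all genes), with TPP2 at 0.51, PREP at 0.43, BLMH at -0.27 and THOP1 at -0.19.

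**Figure D5:**
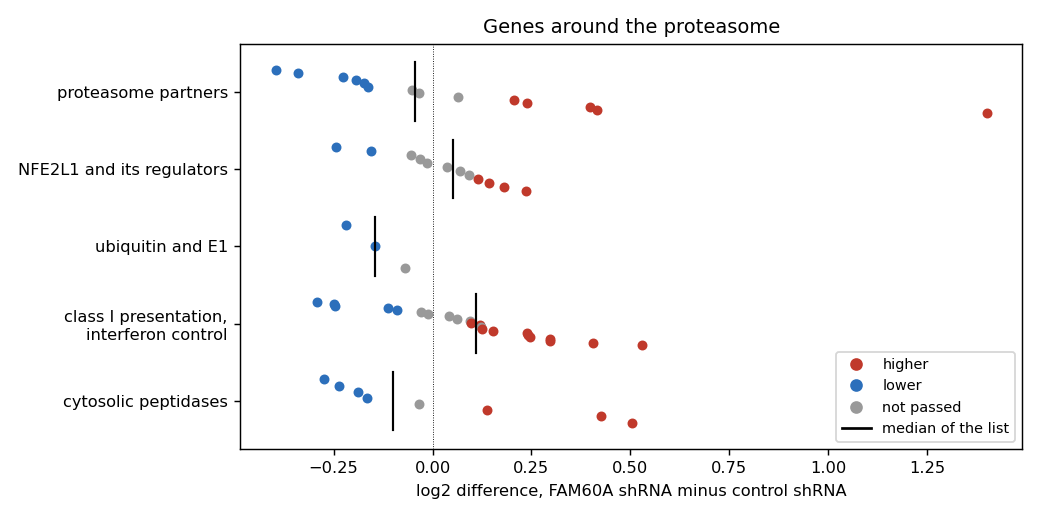
Log2 difference between the shFAM60A and shControl arrays (x axis) of each gene in 5 lists around the proteasome, coloured by call (limma, adjusted p under 0.05), with the median of each list as a black line. UBQLN4 stands apart at 1.40, and the list of class I presentation and interferon control has its median at 0.11.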

How the data were processed

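The deposited table held log2 values of 49395 probe sets on 6 arrays, made by the authors with RMA, per the submitters' processing notes. The program that ran it is not named in these notes. Each probe set was centred on its median over the arrays, to within 5e-07, and base 2 was taken because RMA gives log2 values. Precision is limited by the number of arrays.

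The 44994 probe sets with 1 symbol in the platform annotation were averaged per gene, without control probe sets. The 6 probe sets that list a symbol of the family beside a second symbol were left out. The groups were fitted in R 4.3.3 with limma 3.58.1 (lmFit, then eBayes), with Benjamini-Hochberg adjustment over 18132 genes and a threshold of 0.05, and checked on simulated data. RefSeq tables of GRCh38.p14 gave promoters.

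Level classes use the single-precision rounding step of the values, a method worked out after the data were seen. Every proteasome gene is named. Values per array are given for the 2 with the largest difference in each structural group, for the catalytic subunits and for those that rose. Up to 4 genes with the smallest p are named per pathway list. Others were chosen after their values were seen (UCHL5, DDI2, NGLY1, NRF1, NLRC5, IFNGR1, IFNGR2, JAK2, IRF1, HLA-B, HLA-C, HLA-F). Members and lists were chosen with earlier results of these data known. The alternatives were 2 other normalizations, the median or the most variable probe set per gene, no x_at and s_at probe sets, no probe sets of the lowest class, a robust prior, a replicate block and leaving out each array.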

Additional observations from a re-analysis of the deposited data

How the results depend on the processing

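Over 14 alternatives, 41 of the 49 proteasome genes kept their direction and their side of the threshold. The number that rose ran from 7 to 11 and the number that fell from 27 to 31, both lowest with x_at and s_at probe sets left out, where 45 genes were measured. Sign turned in PSMA8, at 0.0082 after cyclic loess and from -0.033 to 0.013 on leaving out each array, and in PSMF1, at 0.31 with the probe set of largest variance (adjusted p = 0.032). For PSMF1 the sign follows from that probe set, the only one of its 6 that rose. PSMB8 passed under 6 alternatives, with 0.12 to 0.31. PSMG4 lost its call with the probe set of largest variance (-0.25, adjusted p = 0.073), and PSME3 without the third shControl array. ECPAS, PSMB11, PSME3IP1 and PSMF1 gained one under at least 1 alternative; the cause was not tested. With the replicate number as a replicate block, 9 genes rose and 30 fell, PSMB11 being the gain (adjusted p = 0.021). Arrays of the same number had deviations that correlated by 0.16, 0.059 and 0.078 over genes, not all above the 0.1 required here, so the numbers were not used to pair arrays. As a hint from the data, 6 of 6 arrays correlated best with their own number, and whether the arrays are paired was not settled. Over all genes, the split of 3595 higher and 4541 lower became 4063 and 4049 after cyclic loess. Leaving out each array gave 7365 to 7700 called genes.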

Other observations

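Genes beside the inducible members on the chromosome, in RefSeq order, did not all move with them. On chromosome 6, TAP2, PSMB8, TAP1 and PSMB9 lie in this order. TAP2 and TAP1, which form the transporter of peptides into the endoplasmic reticulum, had log2 differences of 0.10 (limma, adjusted p = 0.028) and -0.09 (adjusted p = 0.0498), against 0.46 for PSMB9. TAP2 had 1 of 4 probe sets called higher, at 0.56, and of the 2 probe sets of TAP1 0 passed on their own. HLA-DMB, on the other side of PSMB9, had -0.07 and did not pass (adjusted p = 0.17), and next to it HLA-DMA rose by 0.34 (adjusted p = 0.00188). HLA-DOB, next to TAP2, rose by 0.32 (adjusted p = 0.00205). BRD2, beyond HLA-DMA, was lower, at -0.13. On chromosome 14, EMC9, which lies between PSME1 and PSME2, rose by 0.26. RNF31, on the far side of PSME2, had -0.09 and did not pass (limma, adjusted p = 0.067). FITM1, on the far side of PSME1, rose by 0.22. Further out, PCK2 (1.06) rose, and DCAF11 (-0.11), IRF9 (-0.29) and REC8 (-0.25) fell. On chromosome 16, the direct neighbours of PSMB10 were CTRL, which rose by 0.61, and LCAT, which fell by 0.24. Beyond these, PSKH1 (0.41) rose, SLC12A4 (-0.56) fell, and NRN1L and DPEP3 did not pass. These genes were chosen by position after the members' values were known, and no cause was tested.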
